A study of Mus musculus with 4 samples.

Results

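The replication-dependent histone genes encode the core histones H2A, H2B, H3 and H4 and the linker histone H1 that package newly made DNA. They were chosen by name, as every gene of the deposited table whose symbol is H2ac, H2bc, H3c or H4c with a number, or H1f1 to H1f6. This gave 65 of 50559 genes, with 6 for H1, 18 for H2A, 17 for H2B, 12 for H3 and 12 for H4. RNA-seq was available for E14 mouse embryonic stem cells (ESCs), which are pluripotent cells derived from the blastocyst and were grown here with leukemia inhibitory factor. One group received an siRNA against Cnot1 (siCnot1) and the other a non-targeting siRNA (siNT), both at 150 nM for 48 h, with 2 independent biological replicates per group. CNOT1 is the scaffold of CCR4-NOT, the complex that shortens the poly(A) tails of mRNAs. Which siRNA against Cnot1 was used for these libraries is not given in the sources used here.

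Replication-dependent histone mRNAs are made mainly in S phase and differ from other mRNAs at their 3′ end, where a short stem-loop takes the place of a poly(A) tail. The stem-loop-binding protein SLBP holds this structure, the U7 small nuclear RNP and a cleavage complex cut the transcript just after it, and the mRNA is degraded when DNA synthesis stops. Some of these genes can also use a downstream poly(A) signal, which gives a polyadenylated transcript that reaches past the stem-loop. The libraries were made from poly(A)+ RNA, so the counts are those of polyadenylated forms and of whatever other RNA passed the selection, and they are not a measure of the total histone mRNA.

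The 3′ stem-loop is shown for H1f2, H2bc6 and H4c9, on which the results turn, and for a member of each further sequence type, because it is the feature that sets these genes apart. Each is given in DNA letters with 5 bases on either side, the 6-base-pair stem and 4-base loop in capitals, from GENCODE M21 transcripts on GRCm38.
H1f2 (chr13:23739512-23739527, plus strand): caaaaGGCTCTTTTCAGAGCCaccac
H2bc6 (chr13:23585531-23585546, minus strand): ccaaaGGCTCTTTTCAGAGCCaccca
H4c9 (chr13:22040966-22040981, minus strand): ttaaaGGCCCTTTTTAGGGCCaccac
H4c4 (chr13:23581950-23581965, plus strand): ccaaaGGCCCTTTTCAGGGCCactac
H3c3 (chr13:23745047-23745062, minus strand): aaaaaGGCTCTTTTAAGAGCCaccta
H4c11 (chr13:21735437-21735452, plus strand): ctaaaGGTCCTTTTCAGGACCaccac
H2ac20 (chr3:96220418-96220433, minus strand): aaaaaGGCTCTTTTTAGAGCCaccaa
The search asked for a stem that starts with GG and a loop that starts with TT, on the transcript strand. Of the 65 genes, 61 matched a transcript, 38 of these held the structure and 23 did not, against 0.266% of 55280 other genes. Several of the models without it end close to the stop codon, so a missing match says only that the letters are not in that transcript. The type carried by H1f2 and H2bc6 was the commonest, with 21 members from H1, H2A, H2B and H3, and the type of H4c4 was found in 6 genes, all of them H4. In 17 members an annotated transcript ran over 100 bases past the stem-loop. It continued for 1861 bases in H2bc6, 840 bases in H1f2 and 330 bases in H4c9. The poly(A) signal AATAAA was in the last 50 bases of a transcript in 10 members, H1f2 and H2bc6 among them. In H2bc6 it was found in a separate annotated transcript of 2099 bases that holds no stem-loop. The H2bc6 transcripts that run past the stem-loop did not have it there. H2bc4, the member with most counts, has an annotated transcript of 2 exons and 1156 bases in which no stem-loop was found.

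By the deposited positions on GRCm39, 55 of the genes lie on chromosome 13 between 21899881 and 24118896 and 10 on chromosome 3 between 96127201 and 96177508. None of their exons overlapped an exon of another gene. Total counts per library lay between 32135824 and 32557440. Summed over the 65 genes there were 685 and 649 counts in the siNT libraries and 969 and 1118 in the siCnot1 libraries, which was at most 0.00345% of a library. Cnot1 itself was at 949 ± 51.7 CPM (SD, n = 2) in siNT and fell to 188 ± 5.14 (SD, n = 2), or 19.8% of the control level. CPM here stands for counts scaled to the library total after TMM normalization, and 3 counts correspond to 0.0896 to 0.0964 CPM. This limit covers counting error only. Markers of other cell states also moved between the groups. Of 6 markers of 2C-like cells, the minor ESC state that resembles the 2-cell embryo, 5 rose and their summed level went from between 45.3 and 50.1 to between 134 and 137 CPM. Of 8 ESC markers 6 fell, with sums of 6494 to 6827 against 5412 to 5655 CPM. Of 4 trophectoderm markers 2 fell (18.4 to 18.5 against 8.58 to 9.67 CPM), and of 5 male germ cell markers 3 fell (417 to 441 against 250 to 260 CPM), with Tnp1 and Prm1 at or near 0. Of 4 primitive endoderm markers 1 rose (6.96 to 9.06 against 12.1 to 13.2 CPM), and of 4 fibroblast markers 2 rose (242 to 244 against 274 to 276 CPM). The part of these shifts in the histone counts was not tested.

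Of the 65 genes 21 had enough counts to be tested, which were 2 for H1, 2 for H2A, 6 for H2B, 7 for H3 and 4 for H4. Another 41 had at least 1 count but did not pass the filter, and H2ac1, H2bc1 and H4c17 had no count in any library. Among the tested genes 3 rose in siCnot1 (H2bc4, H1f2 and H2bc6) and 1 fell (H3c10) when the p of edgeR's quasi-likelihood test, adjusted by Benjamini-Hochberg over all 18144 tested genes, had to be under 0.05. H2bc6 passed the filter only through its siCnot1 libraries (19 and 23 counts, with 8 and 0 in siNT). H3c10 passed it only through its siNT libraries (23 and 24, with 9 and 6 in siCnot1). For both, entry to the test and the call rest on the same counts. H3c6 and H2ac11, which were not called, entered in the same one-sided way. Of the 21 histone genes 4 (19.0%) were called, against 29.7% of all tested genes, with 15.0% higher and 14.7% lower. Scaling by library totals gave 3999 genes higher and 1563 lower over all genes, against 2719 and 2668 with TMM, and it called H4c9 as a further histone gene higher and none lower. Most of the histone genes were near the lower limit of what could be tested, with 16 of 21 under 100 counts in all. Genes in the same range of summed counts, 32 to 916, were called in 16.9% of cases, with 12.8% higher and 4.14% lower. The 2917 tested genes with under 100 counts were called in 8.88% of cases. The calls of H2bc6 and H3c10 are tied to their entry to the test, so no difference from these shares is read. The median log2 fold change of the 21 histone genes was 0.21, against 0.0084 for all tested genes. Their median standard error was 0.68, against 0.139 for all tested genes.

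**Figure D1:**
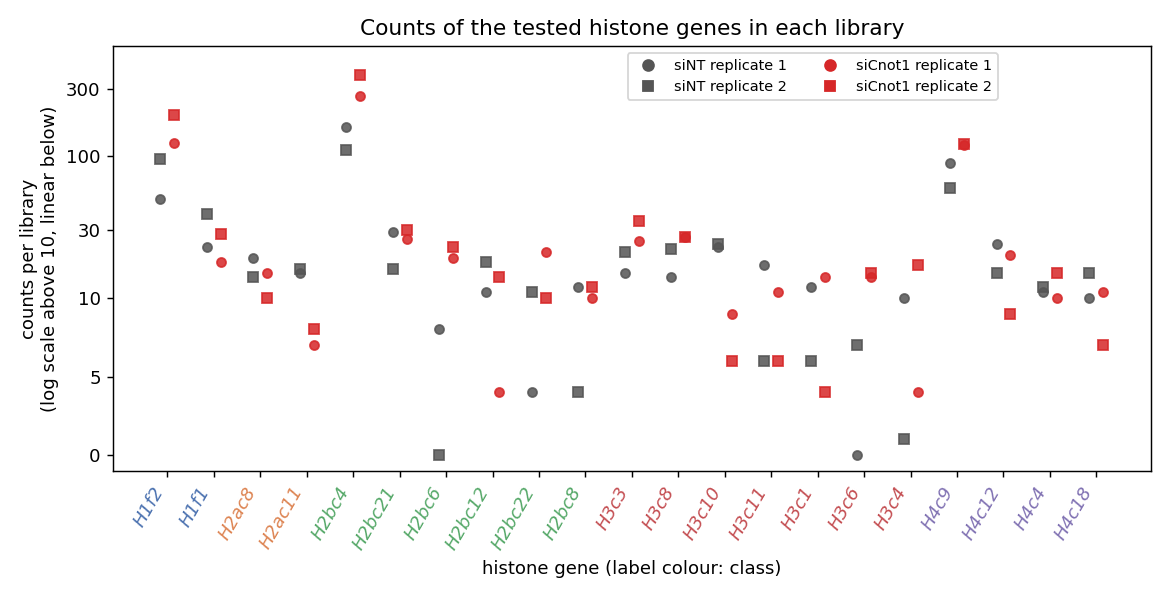
Counts of the 21 tested histone genes in the 4 libraries, grouped by class along the x axis; the y axis is logarithmic above 10 counts and linear below. Circles are replicate 1 and squares replicate 2, grey for siNT and red for siCnot1. H2bc4, H1f2 and H4c9 stand above the others in every library, and only 3 genes pass 120 counts in any library.

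H2bc4, an H2B gene at chromosome 13, 23868182 to 23876805 on the plus strand, had 161 and 111 counts in siNT and 267 and 377 in siCnot1. Both siCnot1 libraries lay above both siNT libraries. Its level was 4.36 ± 1.16 CPM (SD, n = 2) with siNT and rose to 9.62 ± 2.33 (SD, n = 2), or 1.14 on the log2 scale, with a standard error of 0.204 and an adjusted p of 0.000152 (edgeR, Benjamini-Hochberg). H2bc4 alone held 26.8% of all histone counts. Without siNT replicate 1 its log2 fold change was 1.44 with an adjusted p of 0.0566 in edgeR, and without siNT replicate 2 it was 0.89 with an adjusted p of 0.111.

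H1f2 encodes a linker histone, which binds the nucleosome where DNA enters and leaves, and lies at chromosome 13, 23922790 to 23923514, on the plus strand. It had 50 and 96 counts in siNT and 124 and 195 in siCnot1, so the groups did not overlap although the siNT libraries differed widely. Its log2 fold change was 1.03 with a standard error of 0.288 and an adjusted p of 0.00868 (edgeR, Benjamini-Hochberg). The edgeR call was lost when any library but siCnot1 replicate 1 was left out, with log2 fold changes of 0.64 without siNT replicate 1, 1.57 without siNT replicate 2 and 0.66 without siCnot1 replicate 2. It was also lost without a filter on low counts, where the adjusted p was 0.168. No stretch of 150 bases of its annotated transcript is shared exactly with another gene. Shorter stretches and mismatches were not examined. How far its reads were told from those of the other histone genes was thus not tested.

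H2bc6, an H2B gene with a distant second exon at chromosome 13, 23767653 to 23805107 on the minus strand, had 8 and 0 counts in siNT and 19 and 23 in siCnot1. Both siCnot1 libraries were higher than both siNT libraries, at counts close to the limit. The log2 fold change was 2.26 with a standard error of 0.853 and an adjusted p of 0.0493 (edgeR, Benjamini-Hochberg). The call did not hold under DESeq2 (adjusted p of 0.127), without a filter (0.294) or with the replicate number as a block (0.0579), although the log2 fold change stayed between 2.25 and 2.44 in these fits. In edgeR without siNT replicate 2 the log2 fold change was 1.27 with an adjusted p of 0.219, without siCnot1 replicate 1 it was 2.39 (0.122) and without siCnot1 replicate 2 it was 2.11 (0.182). Without siNT replicate 1 the call held (0.047), but the siNT library that is left has 0 counts, and taking 3 counts as its limit the level was at least 6.55-fold higher in siCnot1.

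H3c10, an H3 gene at chromosome 13, 21901798 to 21902285 on the plus strand, was the one histone gene that fell. It had 23 and 24 counts in siNT and 9 and 6 in siCnot1. The libraries of a group were close to each other and the groups were well apart. Its log2 fold change was -1.73 with a standard error of 0.637 and an adjusted p of 0.0433 (edgeR, Benjamini-Hochberg). Of the 150-base stretches of its annotated transcript 90.5% also occur in another gene, so the share of reads assigned to it is uncertain. Its edgeR call was lost whichever library was left out, with log2 fold changes from -2.05 (without siCnot1 replicate 1) to -1.47 (without siCnot1 replicate 2) and adjusted p between 0.106 and 0.209. Without siNT replicate 1 the log2 fold change was -1.76, and without siNT replicate 2 it was -1.71. With every library kept, the call was lost under DESeq2 (adjusted p of 0.117), without a filter (0.0893), with the replicate block (0.0626) and with library totals (0.0578), at log2 fold changes between -1.75 and -1.62.

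**Figure D2:**
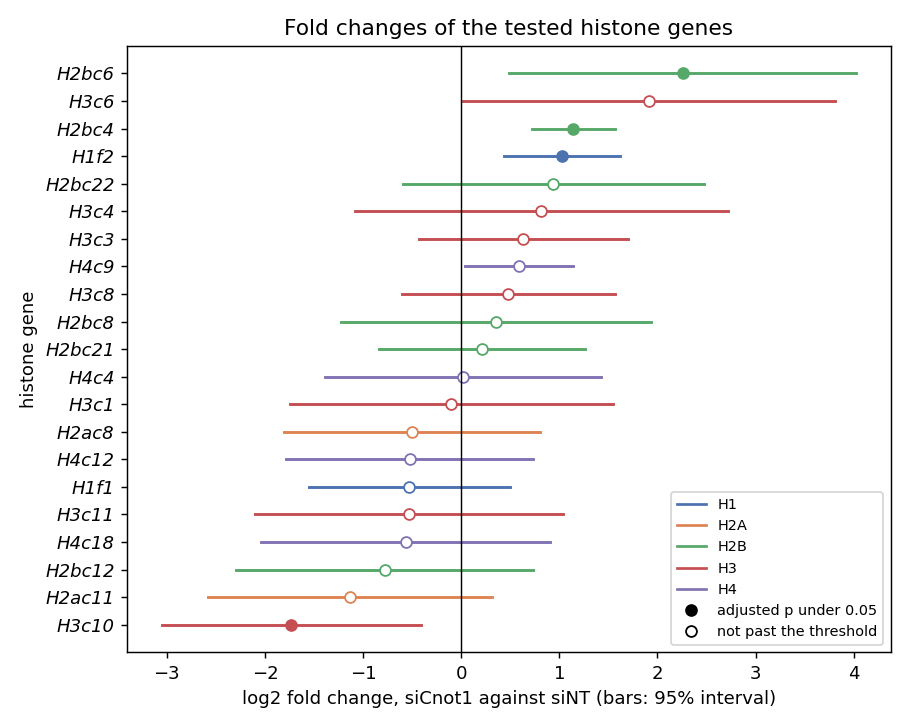
Log2 fold change of each tested histone gene, siCnot1 against siNT, with its 95% interval from the edgeR fit; colours are classes and filled points have an adjusted p under 0.05. The filled points are H2bc6, H2bc4 and H1f2 to the right of 0 and H3c10 to the left, and the intervals of most other genes span more than 2 units.

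Among the genes that did not pass the threshold, H4c9 had the most counts. This H4 gene (chromosome 13, 22225130 to 22225532, minus strand) had 89 and 60 counts in siNT and 120 and 121 in siCnot1. All siCnot1 values were above the siNT values, yet the log2 fold change of 0.59 with a standard error of 0.265 had an adjusted p of 0.0988 (edgeR, Benjamini-Hochberg). H3c6 (chromosome 13, 23745649 to 23746559, minus strand) had 0 and 7 counts in siNT and 14 and 15 in siCnot1, a log2 fold change of 1.92 with an adjusted p of 0.122 in edgeR. Over the alternatives that kept every library its adjusted p ran from 0.0388 in limma-voom to 0.424 in edgeR without a filter. Without siNT replicate 1 its log2 fold change was 0.94, and without siNT replicate 2, which leaves a siNT library at 0, it was at least 4.49-fold higher at a limit of 3 counts.

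The other H3 genes, whose protein carries many of the marked lysines of chromatin, varied in both directions. H3c3 had 15 and 21 counts in siNT and 25 and 35 in siCnot1. H3c8 had 14 and 22 against 27 and 27. Both were without overlap between groups, with log2 fold changes of 0.63 and 0.48 and adjusted p of 0.391 and 0.537 in edgeR. H3c11 had 17 and 6 counts in siNT and 11 and 6 in siCnot1. H3c1 had 12 and 6 against 14 and 4, and H3c4 had 10 and 1 against 4 and 17. In these last genes the replicates of a group differed more than the groups did.

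The other H2B genes gave no call. H2bc21, of the chromosome 3 cluster, had 29 and 16 counts in siNT and 26 and 30 in siCnot1. H2bc22 had 4 and 11 against 21 and 10. H2bc12 had 11 and 18 against 4 and 14, and H2bc8 had 12 and 4 against 10 and 12. The groups overlapped for all of these, with adjusted p between 0.377 and 0.802 in edgeR. Of the H2A genes only H2ac8 and H2ac11 could be tested. H2ac8 had 19 and 14 counts in siNT and 15 and 10 in siCnot1. H2ac11 had 15 and 16 against 7 and 8, a log2 fold change of -1.13 with a standard error of 0.698 and an adjusted p of 0.242 (edgeR, Benjamini-Hochberg), without overlap between the groups.

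H1f1, the second tested linker histone gene, had 23 and 39 counts in siNT and 18 and 28 in siCnot1, a log2 fold change of -0.53 with an adjusted p of 0.467 in edgeR. The remaining H4 genes were H4c12 with 24 and 15 counts in siNT and 20 and 9 in siCnot1, H4c4 with 11 and 12 against 10 and 15, and H4c18 with 10 and 15 against 11 and 7. Their groups overlapped and their log2 fold changes lay between -0.57 and 0.020. In all, the siCnot1 libraries were both above the siNT libraries for 7 of the tested genes and both below for 2, and the groups overlapped for 12. Among them, H2bc6 and H3c6 above and H3c10 and H2ac11 below had passed the filter only through the group where they were high. Their separation is thus tied to their entry to the test. The same shares over all tested genes were not computed, so no direction of the histone genes as a set can be read from these counts.

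The 44 untested genes had at most 37 counts in all 4 libraries together. The untested H2A genes with at least 20 counts were H2ac12 (37), H2ac19 (31), H2ac10 (26), H2ac13 (26) and H2ac14 (23). For H1 they were H1f3, H1f4 and H1f5 with 23 each, for H2B H2bc23 (29), H2bc3 (23) and H2bc11 (23), for H3 H3c7 (20), and for H4 H4c11 (23) and H4c2 (21). Of these H2bc23 (chromosome 13, 21990582 to 21994369, minus strand) differed most between groups. It had 0 counts in both siNT libraries and 23 and 6 in siCnot1, which was at least 4.51-fold higher when 3 counts in each siNT library are taken as the limit. This bound was at least 1.87-fold without siCnot1 replicate 1 and at least 7.15-fold without siCnot1 replicate 2. All of the 150-base stretches of its transcript occur in another gene. H2bc24 has a model of the same length, 2175 bases, and had 0 and 1 counts in siNT and 2 and 0 in siCnot1.

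Compared per length, as RPKM (CPM per kilobase of the deposited gene model), H4c9 had the highest value of the tested histone genes in siNT at 5.92 ± 1.66 (SD, n = 2). H1f2 followed at 3.22 ± 1.42 and H2bc4 at 1.89 ± 0.502, so the first ranks overlapped within their spread. H3c10 ranked 4 at 1.54 ± 0.0382 in siNT and 19 in siCnot1 at 0.459 ± 0.130. The order of the leading 3 was the same in siCnot1, where H4c9 was at 8.93 ± 0.0588, H1f2 at 6.57 ± 2.07 and H2bc4 at 4.18 ± 1.01. H2bc6 was the lowest in both groups, at 0.0512 ± 0.0724 and 0.250 ± 0.0338. These values depend on the gene model. The deposited models have 403 bases for H4c9, 725 for H1f2 and 2303 for H2bc4. The annotated transcripts described above have 727, 1560 and 1156 bases. The deposited models of H4c9 and H1f2 are thus too short to hold the whole of these transcripts.

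Among the class sums, that of H2B differed most between the groups, with H2bc4 holding most of its counts. The H2B sum was 244 and 188 counts in siNT and 394 and 508 in siCnot1, a log2 fold change of 0.96 with a standard error of 0.163. The H1 sum went from 84 and 150 to 181 and 243, a log2 fold change of 0.76 with a standard error of 0.238. Both siCnot1 sums were above both siNT sums in these classes. The H4 sum was 154 and 123 against 179 and 171 (log2 fold change 0.24, standard error 0.205), and the H3 sum 101 and 100 against 120 and 119 (0.15, standard error 0.238). The siCnot1 sums were above the siNT sums in both of these classes too. The H2A sum was 102 and 88 against 95 and 77 (-0.24, standard error 0.264), with overlapping groups. The share of H2B in all histone counts was 32.4% in siNT and 43.2% in siCnot1, while that of H2A was 14.2% and 8.24%. No p is given for sums.

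A few genes carried these sums. The log2 fold change of the sum over all 65 genes was 0.54 with a standard error of 0.105, and it was 0.10 with a standard error of 0.128 once the 3 genes with most counts (H2bc4, H1f2 and H4c9) were left out. Without H1f2 the H1 sum was 34 and 54 counts in siNT and 57 and 48 in siCnot1, and without H4c9 the H4 sum was 65 and 63 against 59 and 50. Without these genes the H1 groups were close, and the H4 sum was lower in both siCnot1 libraries. In the H2B sum, H2bc4 held 161 and 111 of the 244 and 188 counts in siNT. In siCnot1 it held 267 and 377 of the 394 and 508. The H2B sum without H2bc4 was not fitted, so a rise of the class beyond that gene was not tested.

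The deposited gene models fell into short ones, with a median of 492 bases over all 65 genes, and a few long ones that extend well past the coding part. This split, at 600 bases with H1 set aside because its coding part is longer, was chosen after the counts were seen. It describes the deposited models and not which genes have an extended transcript. Some genes with a short model have a long annotated transcript, such as H2ac6 (487 against 2482 bases) and H4c4 (402 against 1138). The 10 longer genes, 6 of them H2B and 4 H3, had 208 and 155 counts in siNT and 387 and 466 in siCnot1 (log2 fold change 1.13, standard error 0.167). Without H2bc4 the other 9 had 47 and 44 against 120 and 89 (1.10, standard error 0.296). Most of this difference lay in H2bc6, H2bc23 and H3c6, each with a siNT library at 0 counts. H2bc6 had 8 and 0 counts against 19 and 23, H2bc23 0 and 0 against 23 and 6, and H3c6 0 and 7 against 14 and 15. The sum of the longer genes without these was not computed. The 49 genes with models of up to 600 bases had 393 and 344 counts against 401 and 409 (0.035, standard error 0.134, 95% interval -0.24 to 0.31). Within H2B the 6 longer genes had 202 and 139 counts in siNT and 358 and 446 in siCnot1, while the 11 shorter ones had 42 and 49 against 36 and 62 with overlapping groups. A longer model also collects more reads per transcript, so the counts of both sets are not levels per length.

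**Figure D3:**
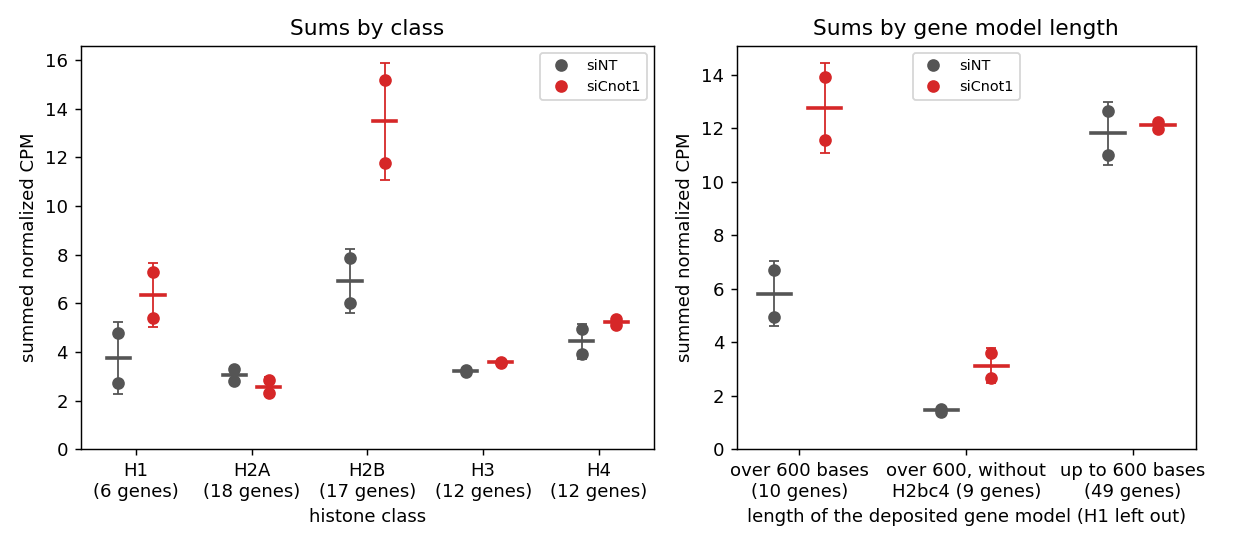
Summed normalized CPM per library, grey for siNT and red for siCnot1, by class on the left and by length of the deposited gene model on the right; points are libraries, horizontal bars the means and error bars the SD (n = 2 per group). The siCnot1 points stand above the siNT points for H1, H2B, H3 and H4 but not for H2A, with the widest gap for H2B, and also for the models over 600 bases, with and without H2bc4, and lie among the siNT points for the models up to 600 bases.

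Many H2A and H2B genes stand head to head and are transcribed in opposite directions from the gap between them. There were 13 such pairs, each of an H2A with an H2B gene, with gaps of 163 to 280 bases. Over the pairs the H2A genes had 77 and 64 counts in siNT and 81 and 58 in siCnot1, and their H2B partners had 229 and 169 against 366 and 477. H2bc4 made most of this difference. Its partner H2ac6, across 239 bases, had 3 and 2 counts in siNT and 0 and 0 in siCnot1. H2ac23, the partner of H2bc23, had 3 and 2 against 8 and 2, and H2ac20, the partner of H2bc21, had 0 and 0 against 5 and 0.

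**Figure D4:**
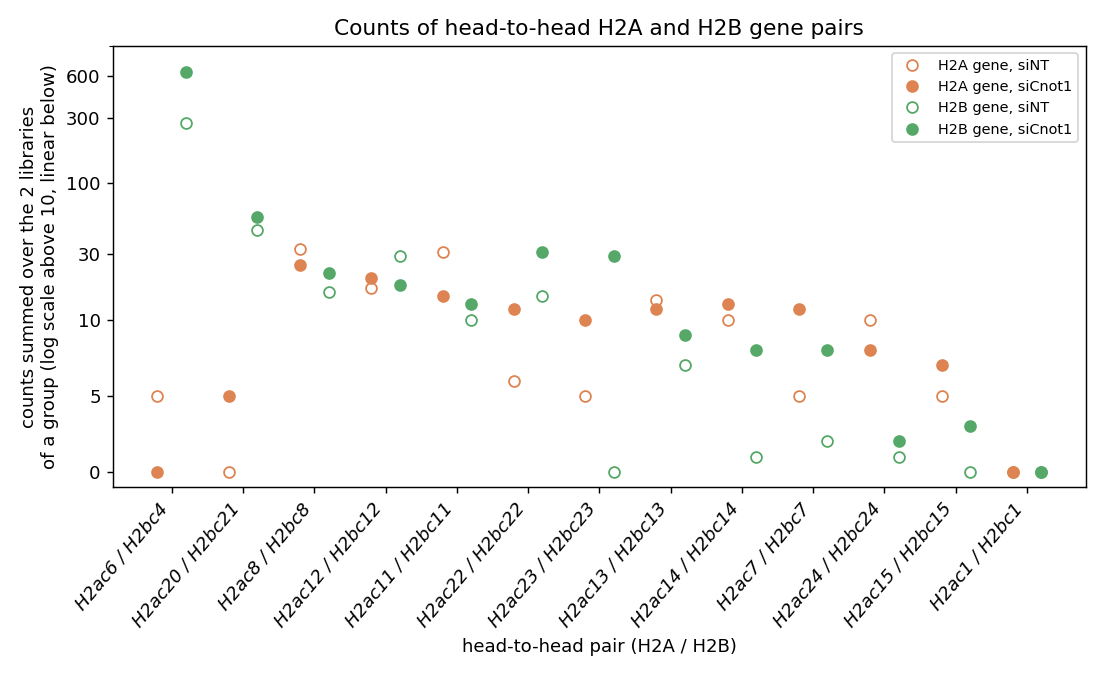
Counts of the 13 head-to-head pairs, summed over the 2 libraries of each group; the y axis is logarithmic above 10 and linear below, orange for the H2A and green for the H2B gene, open points for siNT and filled for siCnot1. H2bc4 stands far above its partner H2ac6, which has 0 counts in siCnot1.

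The promoter of H2ac6 is shown because this gene is the head-to-head partner of H2bc4, which held the most counts. No RefSeq promoter of H2bc4 was at hand, and its start was not set against this promoter. In the main fit H1f2 and H3c10 were called in opposite directions, and both calls were lost in some other fits. Their promoters are shown as well. Each is the 300 bases from 250 before to 50 after the start in RefSeq on GRCm38.p6, on the strand of the gene named, with matches in capitals to TATAAA (the TATA box), CCAAT (bound by NF-Y) and ATTTGCAT (the octamer bound by POU2F1), on either strand.
H2ac6 (chr13:23683910-23684209, minus strand): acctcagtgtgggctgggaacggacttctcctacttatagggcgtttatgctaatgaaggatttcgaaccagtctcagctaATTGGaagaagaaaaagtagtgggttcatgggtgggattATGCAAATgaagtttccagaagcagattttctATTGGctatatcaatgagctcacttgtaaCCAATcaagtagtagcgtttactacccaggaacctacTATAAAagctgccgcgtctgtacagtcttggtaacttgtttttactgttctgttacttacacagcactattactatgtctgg
H1f2 (chr13:23738557-23738856, plus strand): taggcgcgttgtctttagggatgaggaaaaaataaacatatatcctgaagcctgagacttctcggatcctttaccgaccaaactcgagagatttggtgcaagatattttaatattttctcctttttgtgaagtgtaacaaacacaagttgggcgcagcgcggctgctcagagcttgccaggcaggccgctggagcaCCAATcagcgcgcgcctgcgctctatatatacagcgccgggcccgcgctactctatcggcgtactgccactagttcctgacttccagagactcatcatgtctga
H3c10 (chr13:21717378-21717677, plus strand): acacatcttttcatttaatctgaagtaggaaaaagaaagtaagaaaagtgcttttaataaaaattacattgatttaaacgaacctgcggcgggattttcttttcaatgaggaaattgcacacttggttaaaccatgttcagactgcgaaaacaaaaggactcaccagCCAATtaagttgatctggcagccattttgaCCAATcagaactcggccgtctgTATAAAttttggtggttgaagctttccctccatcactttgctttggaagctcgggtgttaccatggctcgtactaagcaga
RefSeq promoters were at hand for 58 of the 65 genes, 59 promoters in all. CCAAT was present in 86.4% of them, against 37.4% of all 32851 promoters in the table. It was in every H1, H2A, H2B and H3 promoter and in 3 of 11 H4 promoters. TATAAA was present in 57.6% against 13.6%. The octamer was present in 22.0% against 1.74%, in 6 H2A and 7 H2B promoters and in no H1, H3 or H4 promoter. CCAAT stands in the promoters of both H1f2 and H3c10, and a match in these windows is a description of the letters and not of binding.

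The factors that make and remove histone mRNA were well covered, unlike the histone genes themselves. Of 19 genes for 3′ end processing and decay, all tested, 10 fell and 1 rose, beside 14.7% lower and 15.0% higher among all tested genes. All tested genes include 2917 with under 100 counts, which were called in 8.88% of cases, against 29.7% over all. The shares over all genes are thus a low reference for this list and for the well-covered lists below. No share matched to their counts was computed. Slbp, which encodes the stem-loop-binding protein, was at 148 ± 5.15 CPM (SD, n = 2) with siNT and fell to 124 ± 5.37 (SD, n = 2), a difference of -0.25 on the log2 scale with an adjusted p of 0.00364 (edgeR, Benjamini-Hochberg). Cpsf3, the endonuclease of the cleavage complex, had the smallest p and fell by 0.55 on the log2 scale, Cstf2 (a cleavage stimulation factor subunit) by 0.36 and Ncbp1 (the larger cap-binding subunit) by 0.34. Eri1, an exonuclease that trims the histone mRNA end, fell by 0.25 with an adjusted p of 0.0103 in edgeR. The U7 snRNP proteins Lsm10 and Lsm11 had log2 fold changes of 0.050 and -0.14 with adjusted p of 0.825 and 0.404 in edgeR. These counts changed with the scaling: when library totals replaced TMM, this moved the median of all genes from 0.0084 to 0.12 on the log2 scale and left 4 of the 19 lower and 2 higher, beside 8.61% lower and 22.0% higher among all genes.

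Among 13 genes for transcription of histone genes, 3 fell and 2 rose, beside 14.7% and 15.0% of all genes, and 1 rose under DESeq2, without a filter and with the replicate block. Casp8ap2, a riser here, is also the riser of the list before and is counted in both. Pou2f1, whose product binds the H2B octamer, fell by 0.38 on the log2 scale, Ccne2 (cyclin E2) by 0.73 and Nfya (an NF-Y subunit) by 0.35. Npat, the coactivator at histone loci, was at 83.5 ± 3.75 CPM (SD, n = 2) with siNT and 87.2 ± 7.08 (SD, n = 2) with siCnot1, with an adjusted p of 0.558 in edgeR. Of 20 histone chaperones and modifiers of new histones 7 fell and none rose in edgeR with TMM (1 was higher at an unadjusted p under 0.05, and none was called by DESeq2 or limma-voom), beside 14.7% lower among all genes. With library totals 5 fell and 2 rose. Npm1 fell by 0.42, Hat1 (which acetylates new H4) by 0.34 and Nap1l1 by 0.27 on the log2 scale.

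Of 18 S phase genes 10 fell and 1 rose under TMM (all genes: 14.7% and 15.0%), and 1 fell and 2 rose with library totals (all genes: 8.61% and 22.0%). Ccne2 had the smallest p of this list. Mcm3 rose by 0.27 on the log2 scale while Mcm7, another subunit of the same replicative helicase, fell by 0.23. This list shares Slbp, Ccne1 and Ccne2 with those above, so the counts are not separate.

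Of 17 listed histone variants outside these families, most of them made from polyadenylated mRNAs (H2ax also gives a stem-loop transcript), 10 were tested, and 4 rose and 2 fell, beside 15.0% and 14.7% of all genes. H2az1, encoding an H2A.Z protein, fell by 0.38 on the log2 scale, while H1f0, the replacement linker histone, rose by 0.45 with an adjusted p of 0.000157 (edgeR, Benjamini-Hochberg) and H3f3a, an H3.3 gene, rose by 0.25. H2ax had 0 counts in every library, and its exons overlap those of Dpagt1, which had 637 to 840. RNAs that carry no poly(A) tail were counted as a measure of what passes the selection. Of 18 such genes only Rn7sk and Terc could be tested, neither was called (adjusted p of 0.634 and 0.651 in edgeR), and the sum of the 18 was 53 and 41 counts in siNT and 53 and 54 in siCnot1. The siNT and siCnot1 values of this sum touched, and its part in the histone counts was not tested.

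**Figure D5:**
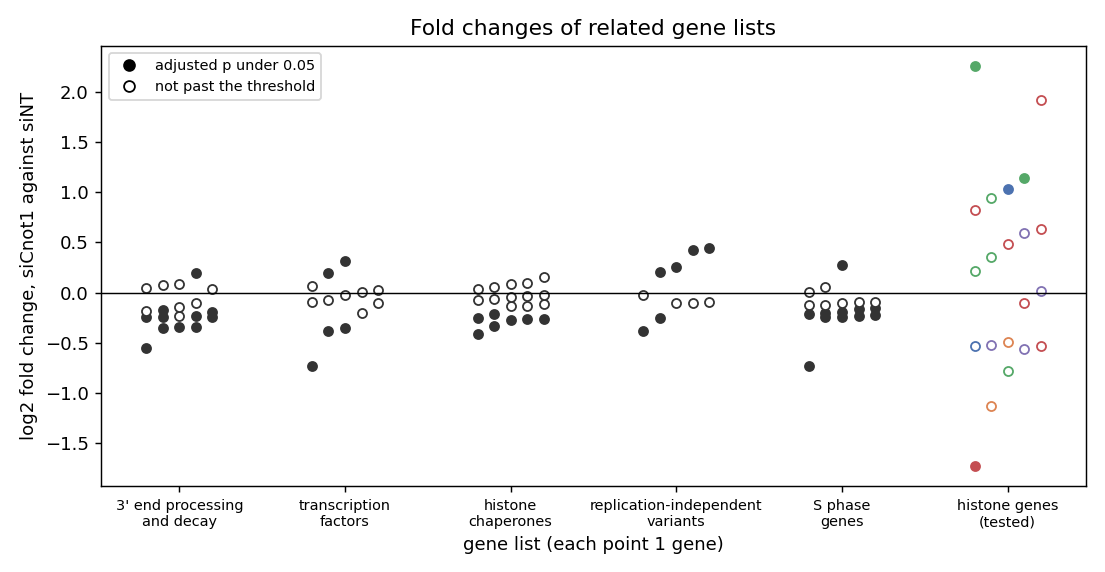
Log2 fold changes, siCnot1 against siNT, of the genes in 5 related lists and of the tested histone genes (coloured by class), each point 1 gene and filled where the adjusted p was under 0.05. The related lists lie between -0.73 and 0.45, while the histone genes spread from -1.73 to 2.26.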

How the data were processed

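The authors isolated poly(A)+ RNA, made dUTP (strand-marking) libraries and sequenced them on a NovaSeq instrument. They deposited raw counts per gene, with replicates kept apart. The submitters' processing notes name fastp 0.19.4, HISAT2 2.2.1, DESeq2 1.40.2 and mm10. Gene positions in the table match GRCm39, and the counting program and its treatment of reads that map to several genes are not given in the sources used here.

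Counts were compared with edgeR 4.0.16 in R 4.3.3 (TMM scaling, filterByExpr with a minimum count of 10, quasi-likelihood test, condition as the only term, Benjamini-Hochberg adjustment over 18144 genes, threshold 0.05). A standard error is the size of the log2 fold change over the root of the F statistic. The sums were added to the same fit as further rows. Alternatives were 3 other scalings, 2 other filters, DESeq2 1.42.0, limma-voom (limma 3.58.1), the replicate number as a block, each library left out in turn, and, chosen after seeing the data, the sums without the 3 leading genes and by model length, and calls at an unadjusted edgeR p under 0.05 with at least a 2-fold change, thresholds like the authors' but in another test.

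All tested histone genes were named with their counts, untested ones from 20 counts, and in each related list the 3 with the smallest p plus Slbp, Lsm10, Lsm11 and Eri1. H2ac6, H2ac20, H2ac23, H2bc24, Npat, Casp8ap2, H2ax, Dpagt1, Tnp1 and Prm1 fall outside this rule and were named after their values were seen. The members and lists were chosen with earlier results of these data known. Transcripts of GENCODE M21 and promoters of RefSeq were joined by gene name, and no GRCm38 position was set against a deposited one.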

Additional observations from a re-analysis of the deposited data

How the results depend on the processing

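Low counts set the limit here. The number of histone genes called higher, 3 in the main analysis, was 1 without a filter on low counts and ranged from 0 (without siNT replicate 2) to 2 when each library was left out in turn; siNT replicate 1 or siCnot1 replicate 2 left out gave 1. The number called lower, 1 in the main analysis, was 0 with library totals, without a filter, with at least 1 CPM in 2 libraries (which left 3 histone genes), under DESeq2's test, with the replicate block and with any library left out. H2bc4 was called in all 8 alternatives that kept every library, and in 2 of the 4 that left one out. With the replicate block H1f2 and H2bc4 were called higher and no histone gene lower. The labels name no pairing of same-numbered libraries. Their deviations from the group means had a correlation of -0.0057 over all tested genes, a single value that cannot exclude a pairing that acts on some genes. The sum over all genes moved from 0.54 to 0.10 without the 3 leading genes, and to 1.13 or 0.035 for models over or up to 600 bases; in the other alternatives it lay between 0.44 and 0.65. H4c9 passed the threshold with library totals (0.70, adjusted p of 0.0499 in edgeR) and H3c6 with limma-voom. Genes whose direction turned were H3c1 (0.0076 with library totals, -1.24 to 0.53 with a library left out), H4c4 (-0.011 in limma-voom, -0.30 to 0.28 with a library left out), and, with a library left out, H3c4 (-0.55 to 3.15), H2bc8 (-0.23 to 1.34), H3c11 (-1.09 to 0.40) and H2bc21 (-0.16 to 0.71); the cause was not tested. An unadjusted edgeR p under 0.05 with a change of at least 2-fold gave 4 higher and 1 lower. Among single genes, class sums and list counts, 318 values kept their direction and side of the threshold or, for counts, stayed close, 34 lost a call or fell, 11 turned direction, 5 gained a call or rose and 2 moved by more than the replicate spread. No filter left 5 of the 3′ end processing genes and 5 of the S phase genes lower.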
